A study of Mus musculus with 7 samples.

Results

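The Z-disc, M-band and sarcomere assembly genes were a list of 45 genes chosen by symbol, and all 45 were found among the 56748 genes in the count files. RNA of muscle stem cells (MuSCs, satellite cells) was sequenced in 7 libraries, 3 from WT mice and 4 from mice homozygous for Jag2sm. Jag2sm is a naturally occurring missense allele that the study treats as a hypomorph of Jag2, which encodes a NOTCH ligand. The genotype label of the same 4 samples reads Jag2-/-, and the name Jag2sm from the sample titles is used here. Both groups came from hind limb muscles of adult mice, as cells that lacked CD31, CD45 and Sca1 and carried integrin α7, kept in myoblast growth medium on collagen without any other treatment named in the labels. The allele came from the stock Jag2sm/J, and the study used male and female mice. The number and sex of the mice behind each sample, the strain of the WT mice, pooling and passage at harvest are not given in the sources used here. The p-values below therefore measure the spread between these samples, part of which may be technical. The comparison of the genotypes asks which transcripts of cultured MuSCs change when the allele is homozygous.

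The sarcomere is the contractile unit of striated muscle, bounded by Z-discs that anchor actin filaments through alpha-actinin and centred on the M-band, where myomesins link myosin filaments. Titin spans from Z-disc to M-band, nebulin lies along the actin filament, and a large set of LIM, PDZ and ankyrin repeat proteins docks on the Z-disc. Proliferating myoblasts hold stress fibres made with widely expressed relatives of these proteins, and most of the muscle forms accumulate as myoblasts leave the cell cycle and build myofibrils, with dedicated chaperones and actin nucleators helping assembly.

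Reads counted on genes ranged from 187834 in WT replicate 1 to 1937581 in Jag2sm replicate 3, so 3 reads equalled 17.3 CPM (reads on genes scaled by library size and TMM factor) in the first and 1.48 to 4.24 CPM in the other 6. Some libraries stood apart from the rest. WT replicate 1 was the shallowest, and 45.1% of its aligned reads fell on no gene, against 20.8% to 25.7% elsewhere. Unaligned reads made up 50.8, 46.7 and 46.0% of Jag2sm replicates 1, 2 and 4, and 2.44% to 3.24% of Jag2sm replicate 3 and the WT libraries. Jag2 itself stood at 80.7, 114 and 116 CPM in WT and 42.4, 78.8, 71.9 and 77.4 CPM in Jag2sm libraries, without overlap, and its log2 fold change of -0.64 (SE 0.243) had an adjusted p of 0.166 in edgeR. The allele is a missense change, so the RNA level does not check the labels. Markers of MuSCs and myoblasts summed to 1257 to 1648 CPM in WT and 1288 to 1673 CPM in Jag2sm libraries, and Msc was the 1 of their 12 genes without a read. Their median log2 fold change was 0.60, with 0 of 9 tested called by edgeR and 2 higher at an unadjusted p under 0.05. Pax7, the transcription factor of MuSCs, stood at 28.8, 95.7 and 80.6 CPM in WT and 100.4, 129, 172 and 125 CPM in Jag2sm libraries, higher without overlap but not called (adjusted p = 0.174). Of the 9 tested, Myod1, Cdh15 and Itga7 went the other way, with log2 fold changes of -0.19, -0.61 and -0.63. Myod1 made up much of the marker sums, at 697, 830 and 808 CPM in WT and 632, 686, 615 and 806 CPM in Jag2sm libraries.

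Members fell in Jag2sm MuSCs in every structure on the list except the titin-linked ankyrin repeat proteins, where Ankrd2 narrowly missed the threshold (adjusted p = 0.0596) and passed it in DESeq2 and limma-voom. Of 41 members with enough reads to test, 31 fell at an adjusted p under 0.05 (edgeR quasi-likelihood test over 9489 genes, Benjamini-Hochberg adjustment), which is 75.6% of them, where 4.84% of all tested genes were called lower and 1.42% higher. Some of the 31 passed the read limit only with their WT libraries, as given below. DESeq2 called 36 of all 45 members lower, some of them outside the 41, and limma-voom called 32 of the 41. They called 4.69% and 5.37% of the genes they tested lower. No member was called higher by edgeR, and none was higher in edgeR at an unadjusted p under 0.05. DESeq2 and limma-voom called no member higher either, against 1.66% and 1.07% of their tested genes. In the fit 28 of the 31 fell at least 4-fold and 15 at least 10-fold. The second count was 8 without WT replicate 1 and 8 without Jag2sm replicate 3, and up to 21 without other libraries, while the first stayed at 28 or 29. Such shares over all called genes are not given here, so both counts describe the members alone. The median log2 fold change of the tested members was -3.11, against 0.05 over all tested genes. In this bulk RNA, fewer cells making sarcomeric transcripts and less such RNA per cell cannot be told apart.

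**Figure D1:**
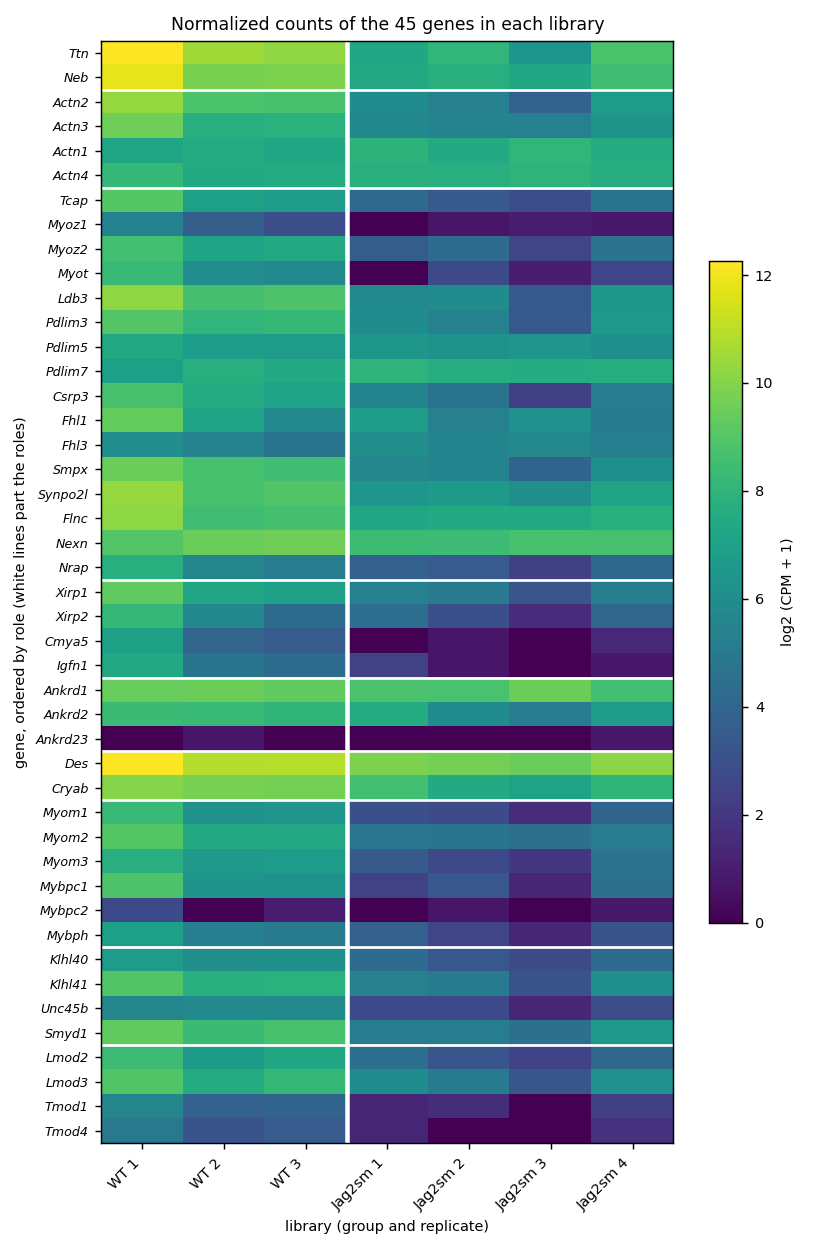
Normalized counts of the 45 genes, one line per gene ordered by role and one column per library, coloured by log2 (CPM + 1) from dark (0) to yellow. Most lines turn darker from the 3 WT columns to the 4 Jag2sm columns, while those of Actn1, Actn4, Pdlim7 and Fhl3 do not.

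Summed over the 45 genes, the level was 30764, 12367 and 12175 CPM in WT replicates 1 to 3 and 4482, 3868, 3603 and 5128 CPM in Jag2sm replicates 1 to 4. All WT libraries lay above all Jag2sm libraries, and WT replicate 1 stood far above the other WT libraries. It was the highest WT library for 39 of the 45 members. Without it, 31 members were called lower, against 4.69% of genes, and the median log2 fold change was -2.49. Among the 31 members called lower, Jag2sm replicate 3 was the lowest Jag2sm library for 28 and Jag2sm replicate 4 the highest for 24. Jag2sm replicate 3, the library of that group whose unaligned share was like that of the WT libraries, thus held the lowest sum.

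The CPM of the groups did not overlap for 34 of the 41 tested members, all lower in Jag2sm, where 12.2% of all tested genes had such a split. The labels give a batch number equal to the replicate number, so batches 1 to 3 each held 1 WT and 1 Jag2sm library. Within them, 35 of 41 tested members were lower in Jag2sm in 3 of 3 batches, against 21.1% of all tested genes. All 31 called members were among them. A gene without overlap between groups is lower in 3 of 3 batches under any pairing of libraries. That holds for the 34 members above, all 31 called members included, so for them the batch count is no separate result. Of the 31, 21 kept an adjusted p under 0.05 in each of the 7 fits that left out 1 library. The like share over all called genes is not given here, so this count does not set the members apart from other called genes. With the batch number as a block 32 members were called lower, against 4.72% of genes, and the calls of Des, Xirp2 and Ankrd2 changed. Jag2sm replicate 2 decided the most calls, since only 21 members were called lower without it, where 2.41% of all tested genes were.

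Low counts limit part of the list. The test asked for 8.17 CPM in at least 3 libraries, and Myot, Cmya5, Igfn1, Unc45b and Tmod1 reached it in no Jag2sm library, so they could enter only through their WT level. Myom1, Myom3, Mybpc1, Mybph and Xirp2 reached it in fewer than 3 Jag2sm libraries, so they too needed WT libraries to enter. For all these genes the filter itself favoured a lower Jag2sm level. The other 31 of the 41 tested members, a set other than the 31 called, reached it in 3 or more Jag2sm libraries. Of the 27 members with at least 10 reads in every library, 18 were called lower, against 7.75% of all genes so filtered. With no filter, where members outside the 41 were tested too, 36 of all 45 were called lower, against 3.1% of genes. With every library thinned to the smallest, 25 members were called lower, against 5.61%. The edgeR fit with no filter gave Xirp2 an adjusted p of 3.77e-17 at a log2 fold change of -3.08. The reported edgeR fit gave it 0.0673 at -3.18. The count with no filter is therefore no like check of the calls. Exons of 28 members overlap those of another gene, mostly on the opposite strand, and the strand setting of the counting is not given in the sources used here, so reads of such pairs cannot be told apart. Of the 31 members called lower, 11 had no such overlap.

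**Figure D2:**
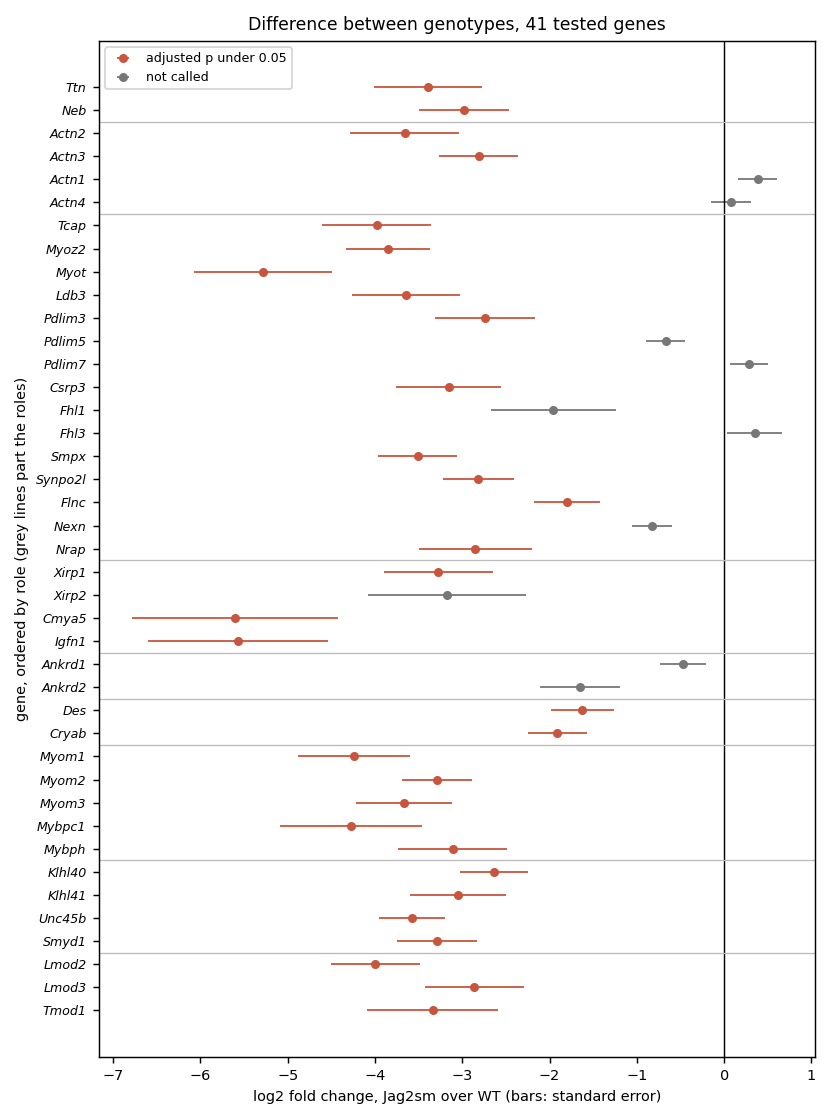
Log2 fold change of the 41 tested members, Jag2sm over WT, with bars of 1 standard error, ordered by role. Red points, at an adjusted p under 0.05, all lie left of zero, and the 10 grey points lie between -3.18 (Xirp2) and 0.38 (Actn1).

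Because these genes moved together, the 250 bases before the start of each canonical transcript were read from GRCm39 and searched on both strands for letters that muscle factors are known to bind. A MEF2 site, bound by the Mef2 factors of differentiating muscle, was present in 7 of 45 members (15.6%) and in 2.2% of promoters of all tested genes. The E-box CAGCTG, one form of the CANNTG box of the MyoD family, was present in 9 of 45 members (20.0%) against 10.9% of tested genes, and CANNTG in any form in 32 (71.1%) against 58.7%. A CArG box, bound by serum response factor, was present in 2 members, Myom1 and Fhl1, against 1.25% of tested genes. No MEF2 site or CArG box overlapped another motif among the members. A match is a run of letters and not a shown binding site. The 5 members called lower that hold a MEF2 site are Klhl40, Klhl41, Csrp3, Synpo2l and Myom3, and the windows of Klhl40 and Klhl41 hold annotated exons of other transcripts. The other 3 windows are shown 5′ to 3′ on the gene's strand, ending at the base before the transcript start, so that the place of the site can be seen. Capitals mark the MEF2 site.
Csrp3 (chr7:48497902-48498151, minus strand): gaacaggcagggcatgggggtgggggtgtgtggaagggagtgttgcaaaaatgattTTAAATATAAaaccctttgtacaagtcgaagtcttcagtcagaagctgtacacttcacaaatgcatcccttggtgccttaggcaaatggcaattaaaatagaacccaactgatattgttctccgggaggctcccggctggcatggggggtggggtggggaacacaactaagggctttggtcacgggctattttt
Synpo2l (chr14:20718423-20718672, minus strand): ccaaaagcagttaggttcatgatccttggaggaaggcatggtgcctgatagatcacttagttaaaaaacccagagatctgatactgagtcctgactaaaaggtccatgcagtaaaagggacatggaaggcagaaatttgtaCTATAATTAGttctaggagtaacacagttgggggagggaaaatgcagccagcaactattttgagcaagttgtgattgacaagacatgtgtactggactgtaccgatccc
Myom3 (chr4:135486767-135487016, plus strand): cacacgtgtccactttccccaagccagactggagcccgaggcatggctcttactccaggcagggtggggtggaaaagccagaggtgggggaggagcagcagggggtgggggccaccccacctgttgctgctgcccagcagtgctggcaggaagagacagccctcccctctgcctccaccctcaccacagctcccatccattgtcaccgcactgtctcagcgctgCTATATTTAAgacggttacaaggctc

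These 3 windows hold no CAGCTG box or CArG box. Counted back from the transcript start, the first base of the MEF2 site lay at -26 in Myom3 and -28 in Klhl40, close to the start, at -63 in Klhl41, at -109 in Synpo2l and at -194 in Csrp3. Klhl40 and Klhl41 also held CAGCTG boxes in the same window. Myoz1, which had too few reads to test, and Xirp2, which was not called, carry a MEF2 site too. The site was present in 5 of the 31 members called lower (16.1%), near the 15.6% of all 45 members. The box CAGCTG was present in 6 of the 31 (19.4%), near the 20.0% of all 45. Neither motif thus set the called members apart from the rest of the list.

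Titin and nebulin, the giant proteins that set filament layout, were both lower. Ttn (chr2:76534136-76812891, minus strand) stood at 4888, 1459 and 1184 CPM in WT replicates 1 to 3 and 157, 271, 85.2 and 439 CPM in Jag2sm replicates 1 to 4. Neb (chr2:52026659-52268486, minus strand) stood at 3551, 890.1 and 925 CPM in WT replicates 1 to 3 and 169.7, 213, 157 and 355 CPM in Jag2sm replicates 1 to 4. In both genes every Jag2sm library was below every WT library, and WT replicate 1 was far above the other WT libraries. Ttn had a log2 fold change of -3.39 (SE 0.618, adjusted p = 0.0109), a 10.5-fold fall, and Neb a log2 fold change of -2.98 (SE 0.513, adjusted p = 0.00879). Without WT replicate 1 the log2 fold changes were -2.49 and -2.03, still called (adjusted p = 0.0237 and 0.00702). The Ttn transcript spans 107543 bases and with the trend of fold change on transcript length removed its value was -2.43 (adjusted p = 0.0174).

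The alpha-actinins, which cross-link actin filaments, divided by tissue type. The muscle forms Actn2 and Actn3 fell and the widely expressed Actn1 and Actn4 were not called. Actn2 (chr13:12281303-12356693, minus strand), the form of all sarcomeric Z-discs, stood at 1279.7, 438 and 415 CPM in WT replicates 1 to 3 and 62.2, 40.1, 13.3 and 108 CPM in Jag2sm replicates 1 to 4. Actn3 (chr19:4911215-4928529, minus strand), the form of fast fibres, stood at 761, 215 and 224 CPM in WT replicates 1 to 3 and 52.3, 44.9, 40.4 and 79.1 CPM in Jag2sm replicates 1 to 4. For both, the highest Jag2sm library, replicate 4, was below the lowest WT library. Actn2 had a log2 fold change of -3.66 (SE 0.622, adjusted p = 0.00823) and Actn3 one of -2.81 (SE 0.453, adjusted p = 0.00684), and without WT replicate 1 these were -2.99 and -2.04, both still called. Actn1 (chr12:80212233-80307547, minus strand), found in stress fibres and adhesions of most cells, stood at 149.9, 186 and 162 CPM in WT replicates 1 to 3 and 240.4, 181, 266 and 188 CPM in Jag2sm replicates 1 to 4. Actn4 (chr7:28592672-28661839, minus strand) stood at 282, 178 and 186 CPM in WT replicates 1 to 3 and 222, 209, 254 and 198 CPM in Jag2sm replicates 1 to 4. The groups overlapped in both, with log2 fold changes of 0.38 (SE 0.220, adjusted p = 0.373) for Actn1 and 0.08 (SE 0.227, adjusted p = 0.908) for Actn4. The sign for Actn4 was not stable, at -0.03 without WT replicate 2 and -0.03 without WT replicate 3.

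**Figure D3:**
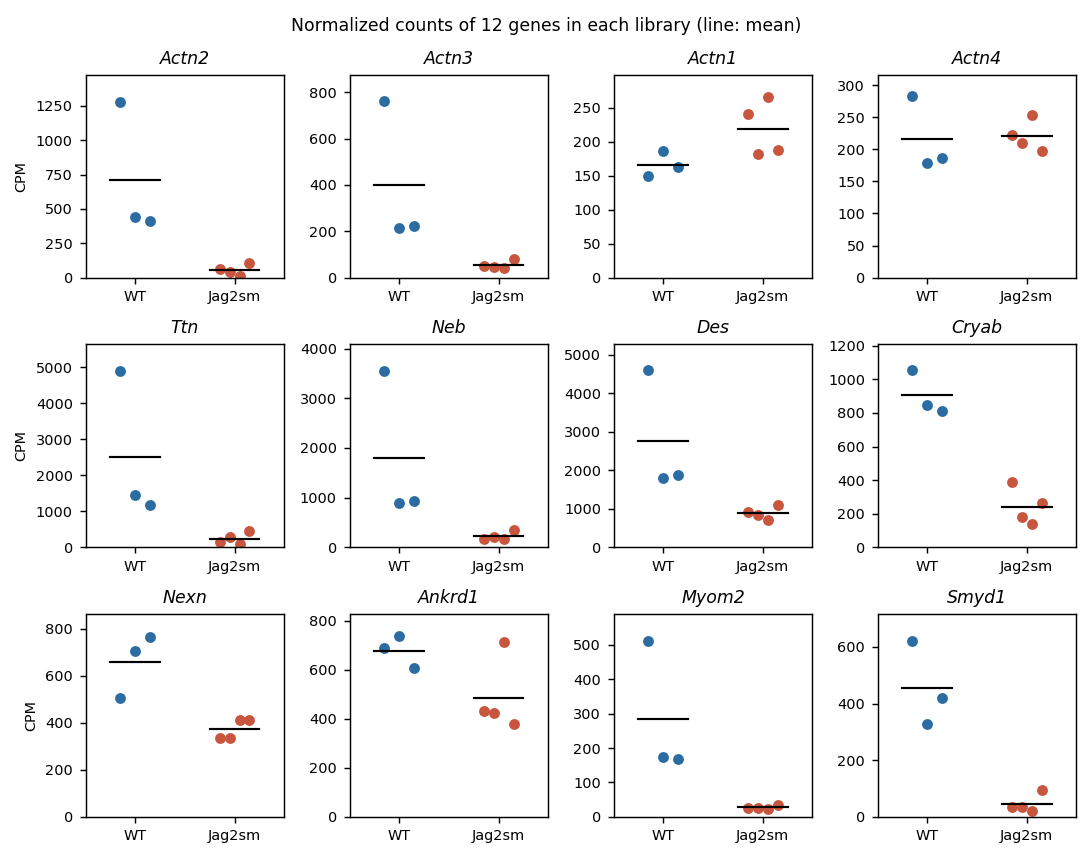
CPM of 12 members in each library, WT in blue and Jag2sm in red, with a line at the group mean and axes from 0. WT replicate 1, the leftmost WT point, is far above the other WT points for Actn2, Actn3, Ttn, Neb, Des and Myom2, and the groups overlap for Actn1, Actn4 and Ankrd1.

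Of the 16 Z-disc adaptors, 10 were called lower and 5 of the 15 tested were not called. Those that fell are largely muscle-restricted. Synpo2l (chr14:20707961-20718422, minus strand), an actin-associated protein of striated muscle, stood at 1257, 407 and 494 CPM in WT replicates 1 to 3 and 86.3, 103, 67.5 and 143 CPM in Jag2sm replicates 1 to 4. Flnc (chr6:29433072-29461887, plus strand), the muscle filamin, stood at 1153, 366 and 404 CPM in WT replicates 1 to 3 and 151, 176, 171 and 218 CPM in Jag2sm replicates 1 to 4. The groups did not overlap in either gene, although the gap between the lowest WT and highest Jag2sm library was narrower for Flnc. Synpo2l had a log2 fold change of -2.82 (SE 0.410, adjusted p = 0.00533) and Flnc one of -1.80 (SE 0.380, adjusted p = 0.0192). Without WT replicate 1 these were -2.18 and -1.11, both called, while Flnc lost its call without Jag2sm replicate 1 (adjusted p = 0.0573) or 2 (adjusted p = 0.0711). Pdlim3 (chr8:46338398-46372689, plus strand), which carries a PDZ and a LIM domain and binds alpha-actinin, stood at 507, 267 and 291 CPM in WT replicates 1 to 3 and 62.2, 40.8, 9.36 and 99.5 CPM in Jag2sm replicates 1 to 4. Its log2 fold change of -2.74 (SE 0.571, adjusted p = 0.0185) was not called without Jag2sm replicate 2 (adjusted p = 0.0735), and was -3.49 with the batch number as a block.

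The other adaptors that fell include binding partners of titin, alpha-actinin and calcineurin. Myot, which encodes myotilin, a partner of alpha-actinin and filamin C, had 55, 97 and 58 reads in WT and 0, 8, 2 and 6 reads in Jag2sm libraries and a log2 fold change of -5.28 (SE 0.794, adjusted p = 0.00539). Tcap, encoding telethonin, which caps the Z-disc end of titin, stood at 103 to 513 CPM in WT and 6.41 to 25.3 CPM in Jag2sm libraries, a log2 fold change of -3.98 (SE 0.626, adjusted p = 0.00615). Myoz2, a calsarcin that ties calcineurin to the Z-disc, had one of -3.85 (SE 0.483, adjusted p = 0.00285). All of these had no overlap between groups. Ldb3, the PDZ-LIM protein Cypher, had a log2 fold change of -3.64 (SE 0.620, adjusted p = 0.00824), and Csrp3, the muscle LIM protein, one of -3.15 (SE 0.602, adjusted p = 0.0130). Smpx, a small protein of striated muscle, had a log2 fold change of -3.51 (SE 0.450, adjusted p = 0.00285), and Nrap, a scaffold of early myofibrils, one of -2.85 (SE 0.644, adjusted p = 0.0266). These 4 did not overlap between groups either. Without WT replicate 1 the values moved by over 1.5-fold for Myot (-4.28), Tcap (-3.05), Ldb3 (-3.01) and Nrap (-2.00). Csrp3 and Nrap lost their calls without Jag2sm replicate 2 (adjusted p = 0.0524 and 0.0827), and Nrap also without Jag2sm replicate 1 (adjusted p = 0.0576). Myoz1, the calsarcin of fast fibres, was below the read limit for testing, with 7, 19 and 7 reads in WT and 0, 1, 2 and 1 reads in Jag2sm libraries, and the log2 ratio of its summed counts, scaled to library size, was -4.01 (95% counting interval -5.97 to -2.52). That interval covers counting error only.

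The Z-disc adaptors that were not called are Nexn, Pdlim5, Pdlim7, Fhl1 and Fhl3. Nexn (chr3:151940103-151972066, minus strand), encoding nexilin, an actin-binding protein also found at adhesions, stood at 507, 707 and 765 CPM in WT replicates 1 to 3 and 337, 337, 410.5 and 412 CPM in Jag2sm replicates 1 to 4. Pdlim5 (chr3:141945345-142101830, minus strand), the PDZ-LIM protein Enh, stood at 173, 112 and 109 CPM in WT replicates 1 to 3 and 89.1, 76.0, 84.3 and 66.8 CPM in Jag2sm replicates 1 to 4. In both genes every Jag2sm library was below every WT library, but the gaps were small, with log2 fold changes of -0.83 (SE 0.228, adjusted p = 0.0601) for Nexn and -0.67 (SE 0.221, adjusted p = 0.109) for Pdlim5. Leaving out WT replicate 1 brought Nexn past the threshold (adjusted p = 0.0103), as did DESeq2 (adjusted p = 0.00586) and removing the length trend (adjusted p = 0.0241). Some exons of Nexn overlap another gene on the same strand. Fhl1 (chrX:55777147-55838706, plus strand), a LIM-only protein abundant in skeletal muscle, stood at 646, 141 and 53.1 CPM in WT replicates 1 to 3 and 117, 40.1, 72.4 and 33.4 CPM in Jag2sm replicates 1 to 4. Its WT libraries ranged so widely that the groups overlapped, and its log2 fold change of -1.96 (SE 0.718, adjusted p = 0.152) was -0.64 without WT replicate 1. Fhl1 was called with no filter on low counts (adjusted p = 9.45e-09) and in no other fit. Pdlim7 (chr13:55643608-55662151, minus strand), the widely expressed Enigma protein, stood at 121, 203 and 178 CPM in WT replicates 1 to 3 and 246, 201, 194 and 201 CPM in Jag2sm replicates 1 to 4. Fhl3 (chr4:124594172-124602419, plus strand), a LIM-only protein of myoblasts and other cells, stood at 63.4, 42.7 and 25.6 CPM in WT replicates 1 to 3 and 66.5, 44.9, 53.2 and 37.5 CPM in Jag2sm replicates 1 to 4. Both overlapped between groups, with log2 fold changes of 0.28 (SE 0.223, adjusted p = 0.532) and 0.35 (SE 0.314, adjusted p = 0.596), and that of Fhl3 was -0.03 when every library was thinned to the depth of the smallest.

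The Xin-repeat and other large Z-disc-linked proteins included the largest fitted falls on the list, those of Cmya5 and Igfn1, which rest on low counts. Xirp1 (chr9:119842821-119852664, minus strand), an actin-binding repeat protein of muscle attachment sites, stood at 623, 147 and 128 CPM in WT replicates 1 to 3 and 41.0, 31.1, 8.38 and 37.5 CPM in Jag2sm replicates 1 to 4. Its groups did not overlap, and it had a log2 fold change of -3.27 (SE 0.628, adjusted p = 0.0131), or -2.31 without WT replicate 1. Xirp2 (chr2:67004178-67356962, plus strand), its relative, stood at 282, 52.4 and 19.0 CPM in WT replicates 1 to 3 and 21.2, 6.91, 1.97 and 15.5 CPM in Jag2sm replicates 1 to 4. Jag2sm replicate 1 lay above WT replicate 3, and its log2 fold change of -3.18 (SE 0.906, adjusted p = 0.0673) was not called. With the batch number as a block Xirp2 was called (adjusted p = 0.000953), as it was by DESeq2 (adjusted p = 0.0475) and without WT replicate 3 (adjusted p = 0.0329). It also passed with no filter, and with the length trend removed under the block. Igfn1 (chr1:135881316-135934080, minus strand), a Z-disc protein with immunoglobulin and fibronectin domains, had 29, 41 and 20 reads in WT and 3, 1, 0 and 1 reads in Jag2sm libraries. Cmya5, the tripartite motif protein myospryn, had 22, 23 and 11 reads in WT and 0, 1, 0 and 2 reads in Jag2sm libraries. Their Jag2sm levels were thus close to the limit of detection, and the log2 ratios of summed counts were -5.13 (95% counting interval -6.79 to -3.86) for Igfn1 and -5.19 (95% counting interval -7.51 to -3.56) for Cmya5. Both were called, with adjusted p = 0.0115 and 0.0192, and their fitted log2 fold changes ranged from -6.51 to -4.45 and from -6.51 to -4.31 as libraries were left out in turn, the smallest without WT replicate 1. For Igfn1 the value was -6.22 without WT replicate 3, -6.51 without Jag2sm replicate 1 and -4.82 without Jag2sm replicate 3. For Cmya5 it was -6.32 without WT replicate 2, -6.40 without WT replicate 3, -4.82 without Jag2sm replicate 3 and -6.51 without Jag2sm replicate 4. Cmya5 was not called without Jag2sm replicate 1 or 2 (adjusted p = 0.0518 and 0.0664).

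The titin-linked ankyrin repeat proteins, a family induced by stretch and stress in muscle, gave no call. Ankrd1 (chr19:36089352-36097506, minus strand) stood at 686, 735 and 608 CPM in WT replicates 1 to 3 and 431, 423, 713 and 377 CPM in Jag2sm replicates 1 to 4. Jag2sm replicate 3 was within the WT range while the other 3 were below it, for a log2 fold change of -0.47 (SE 0.267, adjusted p = 0.363). Ankrd2 (chr19:42024274-42033552, plus strand) stood at 329, 305 and 262 CPM in WT replicates 1 to 3 and 187, 61.5, 34.0 and 105 CPM in Jag2sm replicates 1 to 4. Its groups did not overlap, with Jag2sm replicate 1 nearest to the WT libraries, and its log2 fold change was -1.65 (SE 0.454, adjusted p = 0.0596). With the batch number as a block Ankrd2 was called (adjusted p = 0.0211), as it was by DESeq2 (adjusted p = 0.0195), by limma-voom (adjusted p = 0.0376) and without Jag2sm replicate 1 (adjusted p = 0.0192). It also passed with no filter, with the length trend removed and after thinning. Ankrd23 had 1 read in WT and 1 in Jag2sm libraries, which allows no comparison at this depth.

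Desmin, the intermediate filament that ties neighbouring Z-discs together, and αB-crystallin, the small heat shock protein that protects it, both fell. Des (chr1:75320511-75345223, plus strand) stood at 4599.9, 1807 and 1875 CPM in WT replicates 1 to 3 and 912, 836, 706 and 1103 CPM in Jag2sm replicates 1 to 4. Cryab (chr9:50651859-50668567, plus strand) stood at 1055, 847 and 815 CPM in WT replicates 1 to 3 and 389, 178, 137 and 261 CPM in Jag2sm replicates 1 to 4. Neither gene overlapped between groups, and the lowest Jag2sm library, replicate 3, still held 706 CPM of Des. The log2 fold change was -1.63 (SE 0.361, adjusted p = 0.0244) for Des and -1.91 (SE 0.339, adjusted p = 0.0100) for Cryab. With the batch number as a block Des was not called (adjusted p = 0.0596), nor was it without Jag2sm replicate 1 (adjusted p = 0.0601) or 2 (adjusted p = 0.0890). Cryab was called in all 7 fits with 1 library left out. Exons of Cryab overlap those of its neighbour Hspb2 on the opposite strand.

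The 5 M-band and thick filament genes tested were all called lower. Of these, Myom1, Myom3, Mybpc1 and Mybph reached the read limit in fewer than 3 Jag2sm libraries. WT libraries were thus needed for these genes to enter the test. Myom2 (chr8:15107272-15183541, plus strand), the M-band cross-linker of fast fibres, stood at 513, 175 and 168 CPM in WT replicates 1 to 3 and 26.9, 26.3, 21.7 and 35.1 CPM in Jag2sm replicates 1 to 4. Myom3 (chr4:135487017-135542875, plus strand), the myomesin of intermediate fibres, stood at 213, 97.6 and 108 CPM in WT replicates 1 to 3 and 9.90, 5.53, 2.96 and 24.5 CPM in Jag2sm replicates 1 to 4. Mybpc1 (chr10:88354062-88441175, minus strand), the slow form of myosin-binding protein C, stood at 461, 78.9 and 78.7 CPM in WT replicates 1 to 3 and 4.24, 8.98, 1.48 and 22.0 CPM in Jag2sm replicates 1 to 4. None of the 3 overlapped between groups, and Jag2sm replicate 3 was the lowest library in each. The log2 fold changes were -3.29 (SE 0.401, adjusted p = 0.00273) for Myom2, -3.66 (SE 0.550, adjusted p = 0.00539) for Myom3 and -4.27 (SE 0.815, adjusted p = 0.0130) for Mybpc1. Myom1, the myomesin of all striated muscle, and Mybph, a relative of the C proteins, had log2 fold changes of -4.24 (SE 0.641, adjusted p = 0.00539) and -3.11 (SE 0.621, adjusted p = 0.0155). Without WT replicate 1 the values moved by over 1.5-fold for Myom1 (-3.48), Myom2 (-2.66) and Mybpc1 (-3.14), all still called. Without Jag2sm replicate 4, the highest of its group in these genes, they were -4.86 for Myom1, -4.57 for Myom3 and -5.20 for Mybpc1. Mybpc1 and Mybph were not called without Jag2sm replicate 2 (adjusted p = 0.0503 and 0.0605). Mybpc2, the fast form, had 2 reads in WT and 2 in Jag2sm libraries.

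All 4 assembly factors fell. Smyd1 (chr6:71190923-71299217, minus strand), a muscle methyltransferase needed for thick filament assembly, stood at 623, 327 and 418 CPM in WT replicates 1 to 3 and 33.9, 33.9, 21.7 and 94.6 CPM in Jag2sm replicates 1 to 4. Unc45b (chr11:82798587-82836306, plus strand), the muscle chaperone that folds the myosin head, stood at 46.1, 56.2 and 55.0 CPM in WT replicates 1 to 3 and 5.66, 5.53, 1.48 and 6.52 CPM in Jag2sm replicates 1 to 4. Unc45b varied little between WT libraries, with WT replicate 1 the lowest. It reached the read limit of the test through the WT libraries alone, with 4, 8, 3 and 8 reads in Jag2sm libraries. The log2 fold changes were -3.29 (SE 0.457, adjusted p = 0.00414) for Smyd1 and -3.57 (SE 0.379, adjusted p = 0.00152) for Unc45b, and that of Smyd1 was -3.93 without Jag2sm replicate 4. Klhl41 (chr2:69500462-69515137, plus strand) and Klhl40 encode Kelch proteins that stabilise nebulin and leiomodin. Klhl41 stood at 484, 213 and 227 CPM in WT replicates 1 to 3 and 39.6, 31.1, 7.88 and 67.7 CPM in Jag2sm replicates 1 to 4. Klhl40 (chr9:121606673-121615109, plus strand) stood at 109.5, 65.3 and 69.2 CPM in WT replicates 1 to 3 and 18.4, 8.98, 5.91 and 18.7 CPM in Jag2sm replicates 1 to 4. Both were without overlap between groups, with log2 fold changes of -3.05 (SE 0.552, adjusted p = 0.0106) and -2.64 (SE 0.389, adjusted p = 0.00539). All 4 assembly factors were called in each of the 7 fits that left out 1 library, and Klhl40 was not called when libraries were thinned to the smallest (adjusted p = 0.0524). Exons of Unc45b, Klhl40 and Klhl41 overlap genes on the opposite strand.

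The leiomodins, which nucleate actin filaments, and the tropomodulins, which cap their pointed ends, were called lower in the genes tested. Tmod1 reached the read limit of the test through the WT libraries alone. Lmod3 (chr6:97213986-97230210, minus strand) stood at 478, 187 and 289 CPM in WT replicates 1 to 3 and 62.2, 32.5, 8.87 and 71.7 CPM in Jag2sm replicates 1 to 4. Lmod2 (chr6:24597685-24605753, plus strand) stood at 334, 102 and 156 CPM in WT replicates 1 to 3 and 21.2, 8.29, 4.43 and 16.3 CPM in Jag2sm replicates 1 to 4. The lowest WT library was above the highest Jag2sm library in both, with log2 fold changes of -2.86 (SE 0.562, adjusted p = 0.0143) for Lmod3 and -4.00 (SE 0.512, adjusted p = 0.00285) for Lmod2. Tmod1 (chr4:46038541-46116036, plus strand), the capping protein of striated muscle and erythrocytes, had 8, 21 and 15 reads in WT and 1, 3, 0 and 5 reads in Jag2sm libraries. Tmod4 (chr3:95031645-95036523, plus strand), its skeletal muscle relative, had 5, 12 and 11 reads in WT and 1, 0, 0 and 3 reads in Jag2sm libraries. Tmod1 had a log2 fold change of -3.34 (SE 0.750, adjusted p = 0.0260) and lost its call without any single WT library, with adjusted p = 0.0505, 0.0628 and 0.0657, and without Jag2sm replicate 1 or 2. Its value was -2.67 without Jag2sm replicate 3 and -4.06 without Jag2sm replicate 4. Lmod3 lost its call without Jag2sm replicate 2 (adjusted p = 0.0605). Tmod4 had too few reads to test, and the log2 ratio of its summed counts was -3.77 (95% counting interval -5.74 to -2.26).

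To ask whether muscle forms moved relative to their widely expressed relatives, the log2 ratio of muscle form to relative was taken within each library (CPM + 0.5) for 7 pairs. All 7 ratios were lower in every Jag2sm library than in any WT library. Each gave p = 0.0286 in a two-sided exact permutation test, 0.0286 adjusted over the 7 pairs, which is the smallest value that 35 splits of 3 and 4 libraries allow. Except for Fhl1, the muscle genes of these pairs already lay lower in Jag2sm without overlap, and the pairs were chosen with earlier results known. The tests therefore add little to the values of the single genes, and the ratios serve as description. Actn2 and Actn3 over Actn1 and Actn4 gave log2 ratios of 2.24, 0.84 and 0.88 in WT and -2.01, -2.19, -3.26 and -1.05 in Jag2sm libraries, a difference of -3.45. The ratio thus lay above zero in all WT libraries and below zero in all Jag2sm libraries. Since gene lengths differ, ratios are read only between libraries. Within batches 1 to 3 the difference was -4.25, -3.03 and -4.14.

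Unc45b over Unc45a, the chaperone of nonmuscle myosin, gave log2 ratios of -0.17, 0.25 and 0.64 in WT and -3.14, -2.98, -4.76 and -2.58 in Jag2sm libraries, a difference of -3.61. Unc45a itself stood at 51.9, 47.2 and 35.1 CPM in WT and 53.7, 47.0, 53.2 and 41.6 CPM in Jag2sm libraries and was not called (adjusted p = 0.728). The WT ratios of this pair lay close together, WT replicate 1 included. Des over Vim, the intermediate filament of mesenchymal cells and myoblasts, gave 2.14, -0.72 and -0.53 in WT and -2.24, -2.19, -2.73 and -1.70 in Jag2sm libraries, a difference of -2.51, or -1.59 without WT replicate 1. Vim stood at 1043, 2970.1 and 2714 CPM in WT and 4324, 3821, 4704 and 3574 CPM in Jag2sm libraries (adjusted p = 0.219), and it was lowest in WT replicate 1.

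Both members of the next pairs are on the list. Pdlim3 over Pdlim7 gave 2.06, 0.39 and 0.71 in WT and -1.97, -2.29, -4.30 and -1.01 in Jag2sm libraries, a difference of -3.45, or -2.81 without Jag2sm replicate 3. Fhl1 over Fhl3 gave 3.34, 1.71 and 1.04 in WT and 0.82, -0.16, 0.44 and -0.16 in Jag2sm libraries, a difference of -1.80, or -1.14 without WT replicate 1. The ratio of these LIM-only genes separated the groups although edgeR called neither gene alone with the low-count filter. The remaining pairs rest on few reads. Tmod1 and Tmod4 over Tmod3, the capping protein of most cells, differed by -5.42, but Tmod3 had only 1, 51 and 26 reads in WT and 41, 78, 113 and 44 reads in Jag2sm libraries. Tmod3 stood at 5.76, 33.0 and 24.7 CPM in WT and 58.0, 53.9, 55.7 and 35.9 CPM in Jag2sm libraries. It was higher without overlap but not called by edgeR (adjusted p = 0.118), so the level of the relative enters the difference too. Tmod1 and Tmod4 both had 0 reads in Jag2sm replicate 3, where the added 0.5 CPM sets the ratio. The difference was -4.12 without WT replicate 1, -6.23 without WT replicate 2, -4.63 without Jag2sm replicate 3 and -6.11 without Jag2sm replicate 4, and -4.51 with 2 CPM added. Cryab over Hspb1, another small heat shock protein, differed by -4.04, but Hspb1 had 0, 47 and 24 reads in WT and 23, 39, 40 and 47 reads in Jag2sm libraries, and in WT replicate 1 the ratio is set by the added 0.5 CPM. Its difference shrank to -2.01 when WT replicate 1 was left out, grew to -5.14 and -4.97 when WT replicate 2 or 3 was, and was -3.39 with 2 CPM added. Within batches 2 and 3 the differences for Cryab over Hspb1 were -2.08 and -2.36.

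**Figure D4:**
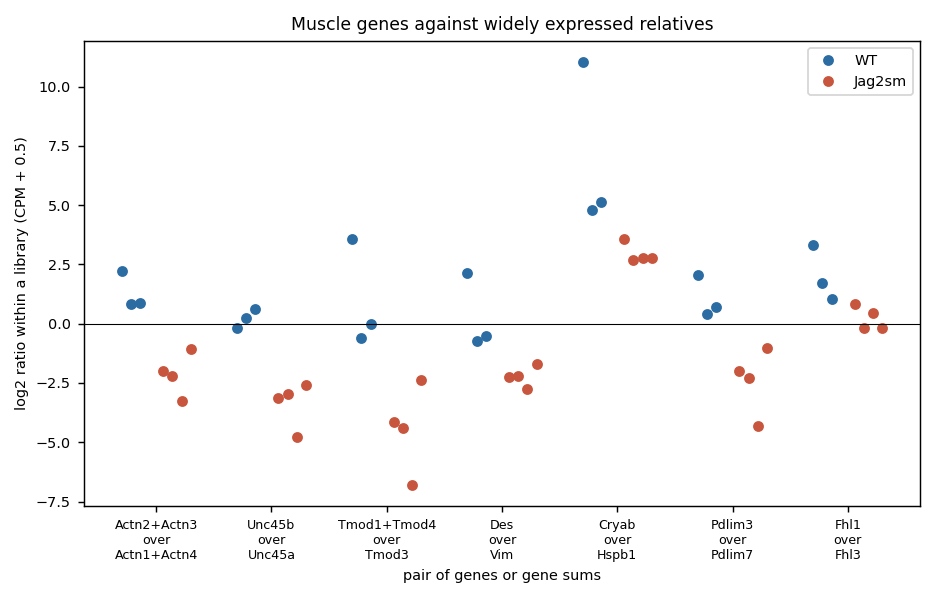
Log2 ratio within each library of muscle genes over widely expressed relatives for 7 pairs, WT in blue and Jag2sm in red, one point per library. In every pair the 4 red points lie below the 3 blue points, and the leftmost blue point of Cryab over Hspb1 stands high because Hspb1 had no reads in WT replicate 1.

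A smaller share of other genes of the same structures was called. Of 56 further Z-disc, M-band and assembly genes, 55 were found and 47 tested, of which 11 were called lower and 0 higher by edgeR, with a median log2 fold change of -0.22. The 11 are 23.4% of those tested, against 4.84% of all tested genes called lower. At an unadjusted p under 0.05, 16 were lower and 6 higher. DESeq2 called 13 lower and 1 higher, and limma-voom 13 lower and 0 higher. The list holds many proteins of stress fibres and adhesions beside muscle genes. The 5 genes of this list with the largest called falls were Hspb7, Hspb3, Trim63, Mypn and Klhl31. Hspb7 and Hspb3, small heat shock proteins of striated muscle, had log2 fold changes of -4.56 (SE 0.677, adjusted p = 0.00539) and -3.40 (SE 0.448, adjusted p = 0.00322). Trim63, the muscle ubiquitin ligase MuRF1, had one of -3.38 (SE 0.648, adjusted p = 0.0131), and Mypn, a Z-disc partner of nebulin and alpha-actinin, one of -3.05 (SE 0.557, adjusted p = 0.0109). Klhl31, a Kelch protein of skeletal muscle, had one of -2.96 (SE 0.376, adjusted p = 0.00285). Hspb3, with 4, 11, 2 and 5 reads in Jag2sm libraries, reached the read limit of the test through the WT libraries alone. Trim63, with 10, 6, 4 and 21 reads there, reached it in fewer than 3 Jag2sm libraries and also needed WT libraries to enter. For both genes, which are among the 11, the filter itself favoured a lower Jag2sm level. Without WT replicate 1 the log2 fold changes were -3.51 for Hspb7 and -2.40 for Mypn, both called. The value was -4.02 for Trim63 without Jag2sm replicate 4, and Trim63 lost its call without Jag2sm replicate 2 (adjusted p = 0.0514).

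A separate list of mature myofibre markers, among them fast and slow myosin heavy chains, moved with these genes. It summed to 4542, 2103 and 2397 CPM in WT replicates 1 to 3 and 280.0, 228, 66.5 and 454 CPM in Jag2sm replicates 1 to 4. Of its 10 genes 7 were tested and all 7 were called lower, where 4.84% of all tested genes were. How many of the 7 reached the read limit of the test in Jag2sm libraries is not given here, so the filter may have favoured a lower Jag2sm level. None of the 10 was at 0 in all libraries. The order of the sum among the Jag2sm libraries, replicate 4 highest and replicate 3 lowest, was that seen for most members. Tenocyte markers summed to 115 to 128 CPM in WT and 30.6 to 76.6 CPM in Jag2sm libraries. Of their 6 genes only Scx was tested, and it was called lower. Fibro-adipogenic markers summed to 61.6 to 88.6 CPM in WT and 86.7 to 182 CPM in Jag2sm libraries, with 1 of 10 tested and not called, and Lum and Dpt without reads. Mural markers summed to 59.7 to 86.5 CPM in WT and 68.5 to 687 CPM in Jag2sm libraries, the highest value resting on Rgs5 in Jag2sm replicate 1. Of their 8 genes 3 were tested, and 1, Abcc9, was called lower. Endothelial, immune and glial markers summed to at most 17.3 CPM in any library, with Kdr, Tie1, Esam, Ptprc, Adgre1, Lyz2, C1qa, Cd3e and Tyrobp without a read. The part of these lists in the fall of the sarcomere genes was not tested.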

How the data were processed

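RNA of the cultured MuSCs was reverse transcribed and sequenced as direct cDNA on an Oxford Nanopore instrument, without amplification. The submitters' processing notes name GRCm39, the aligner minimap2 2.17 and the counter HTSeq, and the deposited values are whole-number counts of reads, 1 table per library, not normalized. The HTSeq version, its strand setting and the annotation release are not given in the sources used here. The 5 summary lines of each table (reads on no gene, ambiguous, unaligned and the like) were kept out of library sizes. A further deposited table holds the authors' own DESeq2 comparison (fold changes and p-values) and was not used.

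Counts were tested with the quasi-likelihood test of edgeR 4.0.16 in R 4.3.3 (filterByExpr with a minimum count of 10 and minimum total of 15, TMM scaling, no covariate), with Benjamini-Hochberg adjustment over all 9489 genes tested and a threshold of 0.05. Depth ran from 187834 to 1937581 reads on genes, and counting intervals (95%, exact) and limits cover counting error only. Gene positions, exon overlaps and promoter windows came from GENCODE M39 on GRCm39 (56017 of the 56748 gene identifiers were found), with bedtools 2.31.1. Pair ratios used CPM plus 0.5 and exact permutation tests in SciPy 1.17.1. The code was tested on simulated counts.

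Groups came from the sample titles. The labels give each library a batch number equal to its replicate number, without saying what a batch is, and this pairs replicates 1 to 3 of the groups. Deviations from the group means of same-numbered libraries correlated at 0.0740, 0.0144 and 0.0539 across genes. The alternatives were DESeq2 1.42.0, limma-voom (limma 3.58.1), DESeq2 size factors, library size alone, other filters, a robust fit, the batch number as a block, removal of the trend on transcript length, thinning to the smallest library, and each library left out in turn.

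All members are named. Values in every library are given for the 3 tested members with the most counts in each role group, for tested members that were not called, and, as CPM or reads, for the genes of the ratio pairs. Of the further Z-disc, M-band and assembly genes, up to 5 with the largest called changes in each direction are named. Members, lists, pairs and tests were chosen with earlier results of these data known. A few genes outside the member list, and a ratio built on them, are not reported here.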

Additional observations from a re-analysis of the deposited data

Results flagged for a closer look

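Among the 4 Jag2sm libraries, 5 of 52 quantities examined had a library set apart from the other 3, judged by the gap to the nearest library as a share of the group's whole range against Dixon's critical value at the 95% level. About 1 in 20 such groups would pass by chance. The share was 0.858 for Pdlim7, which was highest in Jag2sm replicate 1 (246 CPM, against 194 to 201 CPM in the others). It was 0.838 for Ankrd1, highest in Jag2sm replicate 3 (713 CPM), the library within the WT range. It was 0.832 for Smyd1, highest in Jag2sm replicate 4 (94.6 CPM). For the log2 ratio of Cryab over Hspb1 it was 0.915, with Jag2sm replicate 1 at 3.56 and the others at 2.70 to 2.77. For the percentage of unaligned reads it was 0.898, with Jag2sm replicate 3 at 3.07% and the others at 46.0% to 50.8%.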

How the results depend on the processing

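Of 751 log2 fold changes of single members recomputed over the alternatives, 710 kept their direction and their side of the threshold, 20 lost a call, 18 gained one and 3 changed sign. Those 3 were of genes not called, Fhl3 at -0.027 after thinning to the smallest library and Actn4, which ranged from -0.030 to 0.27 as libraries were left out, at -0.030 without WT replicate 2 and -0.025 without WT replicate 3. Members called lower numbered 36 with DESeq2, 32 with limma-voom, 36 with no filter, 25 after thinning and 18 under the filter of at least 10 counts in each library, which left only 27 members, and 21 to 32 when libraries were left out in turn. In none of these fits was a member called higher, and their median log2 fold change lay between -3.41 and -2.49. The 36 with DESeq2 and the 36 with no filter include members outside the 41 tested in the reported fit. Over all genes, 594 were called, 1248 with no filter, 274 under that filter, 256 after thinning, 300 after thinning with the replicate block, and 251 to 616 with 1 library left out, the fewest without Jag2sm replicate 2, with 343 and 341 without WT replicates 2 and 3. Of the further sarcomere genes, 0 were called higher in the reported fit, 1 with DESeq2, 3 with no filter, 1 with the length trend removed (with or without the replicate block), and 0 with any 1 library left out. The log2 fold change of Jag2 passed the threshold only after thinning without the block (-1.18, adjusted p = 0.0414). Library size alone moved the median over all genes from 0.05 to 0.21. The replicate block called 32 members lower and 565 genes in all, and changed no member's call beyond those of Des, Xirp2 and Ankrd2. All 7 pair ratios kept their direction in all 10 alternatives, although with 1 library left out the exact test cannot pass 0.05. Depth limits Cmya5, Igfn1, Tmod1, Tmod4, Myoz1 and Myot, whose Jag2sm libraries held few reads, and WT replicate 1, the shallowest library, raised most WT means. The cause of these shifts was not tested.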
